A study of Mus musculus with 12 samples.

Results

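The peroxisome proliferator-activated receptors (PPARs), their retinoid X receptor (RXR) partners, the PGC-1 coactivators and the estrogen-related receptors (ERRs) were followed in mouse hearts as genes that they control changed with diabetes. The members were the 10 genes *Ppara*, *Ppard*, *Pparg*, *Rxra*, *Rxrb*, *Rxrg*, *Ppargc1a*, *Ppargc1b*, *Esrra* and *Esrrg*, out of 37074 gene names on the array. Their probes were found by the gene name in the scanner files, but the members were chosen with earlier results of these data known. The array carried 20 probes for them, of which 19 entered the test, and each of the 10 genes had at least 1 tested probe.

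The hearts came from male C57BL6/J mice aged 5 months, with 3 mice in each of 4 groups and 1 array per mouse. Control mice (C) received neither agent, and C + P mice received pargyline, an inhibitor of monoamine oxidase, intraperitoneally at 50 mg/kg per day for 12 weeks. Diabetic mice (D) had been given 5 daily doses of streptozotocin, a toxin of the insulin-producing beta cells, at 50 mg/kg, and counted as diabetic from a blood glucose of 17 mM. D + P mice received both. All groups shared the strain, the sex and the age, and streptozotocin is a model of insulin deficiency, not of insulin resistance.

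PPARs are nuclear receptors that bind fatty acids and their derivatives and act on DNA as a heterodimer with an RXR. PPARα and PPARδ drive fatty acid uptake and oxidation in heart muscle, whereas PPARγ is best known from adipocytes. PGC-1α and PGC-1β bind no DNA themselves and are recruited by PPARs, ERRs and other factors to raise transcription of oxidative and mitochondrial genes. ERRα and ERRγ are orphan receptors that bind an extended form of the same DNA core as a monomer or dimer and switch on genes of the respiratory chain and the tricarboxylic acid cycle. The activity of these proteins depends on ligands, partners and modification as well as on the amount of mRNA, and the arrays measured the mRNA only. In whole heart tissue, fewer cells of a type and less RNA per cell cannot be told apart.

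Spots well above background numbered 23556 to 29231 per array out of 59305, and the repeat spots of 5 arrays varied more than the range the scanner software accepts (up to 23.2% on D replicate 1, and 3.89% on the least variable array, C replicate 3). The 8 cardiomyocyte markers, summed on the linear scale so that the brightest weigh most, came to 19.49 to 19.75 on the log2 scale over the 12 arrays. None of them passed the test, but *Ryr2*, the calcium release channel, stood at 13.36 to 13.81 in the non-diabetic and 11.83 to 12.99 in the diabetic hearts without overlap (-0.99, SE 0.21, adjusted p = 0.141 by limma). C and D lay on 1 slide and C + P and D + P on another, so that pargyline and slide cannot be told apart. On each slide the diabetic hearts filled 1 row and the non-diabetic hearts the other, so a diabetes effect cannot be told apart from a row effect. Nothing in the sources says whether the 3 mice of a group came from separate litters or cages.

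The probes were called with limma at a Benjamini-Hochberg adjusted p of 0.05 over the 30857 probes tested. None of the 19 regulator probes passed in any of the 6 contrasts. In diabetes averaged over pargyline, the mean of D against C and D + P against C + P, 0 of 19 passed beside 0.107% of all tested probes. The share of all probes that passed was 0.0454% in D + P against C + P, 0.0324% in C + P against C, 0.00648% in D against C, 0.00648% for the interaction of diabetes and pargyline and 0% in D + P against D. At an unadjusted p under 0.05 by the same limma fit, 3 of the 19 regulator probes passed in the averaged contrast (11.4% of all probes did), 2 in D + P against C + P (7.46%), 0 in C + P against C (4.43%), 1 in D against C (10.8%), 1 for the interaction (7.03%) and 1 in D + P against D (13.3%). At such backgrounds a count of 0 of 19 at the adjusted threshold says little of the members by itself, and the interval of each gene is therefore given below.

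The brightest probe of each gene was used to bound its change. Averaged changes with diabetes ran from -0.37 for *Esrra* to 0.36 for *Ppargc1b* on the log2 scale, with standard errors of 0.09 to 0.21. These limits depended on how the signal was corrected. With normexp, an alternative that starts from the raw mean and background signals, fits their distribution on each array and adds an offset of 50, they were -0.52 for *Esrra* and 0.44 for *Ppargc1a*, and *Ppargc1b* was at 0.17. The outermost ends of the 10 intervals (95%, each for 1 gene) were a level 0.611 times and a level 1.66 times that of the non-diabetic hearts. The median change of the 10 was 0.07 and that of all tested probes -0.01. Averages were higher in 6 of the 10 genes and lower in 4, although *Rxrb*, *Rxrg* and *Esrrg* had the other sign with normexp (0.030, 0.13 and -0.032). *Ppara* and *Rxra*, both among the 6, turned sign in 3 of 24 alternatives each.

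**Figure D1:**
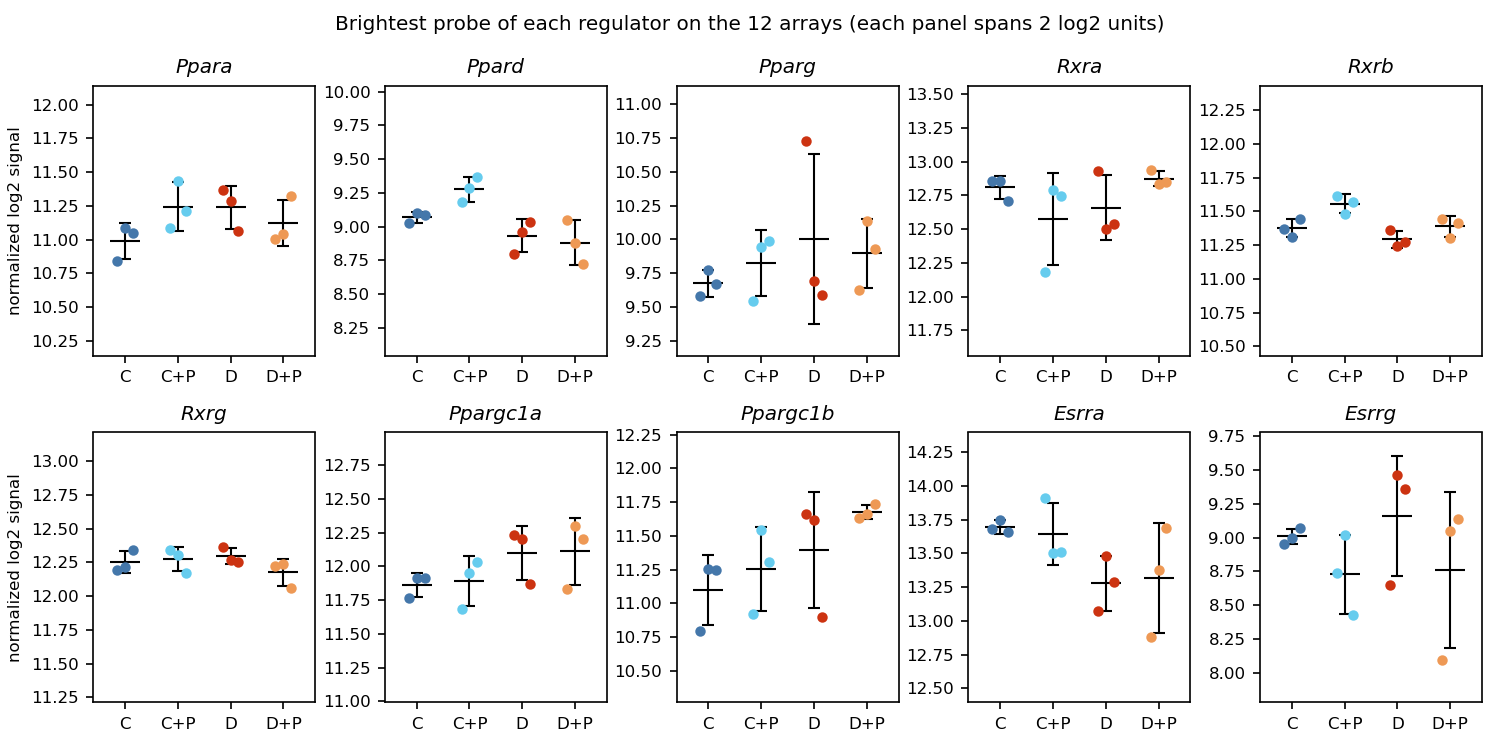
Normalized log2 signal (y axis) of the brightest probe of each of the 10 regulators by group (x axis). Each point is 1 array, the horizontal mark is the group mean and the bar 1 SD (n = 3). Every panel spans 2 log2 units, and in 0 of the 10 panels are D clear of C and D + P clear of C + P in the same direction.

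*Ppara*, the PPAR of fatty acid oxidation, had its brightest probe on chromosome 15 (mm9, 85632110 to 85632169). The log2 signals were 10.84, 11.09 and 11.05 in C, 11.08, 11.44 and 11.22 in C + P, 11.37, 11.29 and 11.06 in D, and 11.01, 11.04 and 11.32 in D + P. D lay mostly above C while D + P lay mostly below C + P, with overlap in both pairs. The averaged change was 0.06 (SE 0.12, 95% interval -0.19 to 0.32, adjusted p = 0.863 by limma), which corresponds to 0.875 to 1.25 times the non-diabetic level. A second *Ppara* probe 5083 bases further along the same transcript gave 10.10, 10.04 and 10.24 in C, 10.39, 10.24 and 10.23 in C + P, 9.53, 10.19 and 10.24 in D, and 10.10, 9.91 and 9.47 in D + P. All 3 D + P arrays lay under all C + P arrays there, and the averaged change was -0.30 (SE 0.16, adjusted p = 0.503), or -0.18 without D replicate 1. The 2 probes therefore had opposite signs in the main fit, and neither passed the test. The sign of *Ppara* at its brightest probe, or with its probes averaged, turned in 3 of 24 alternatives (lowest -0.12).

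*Ppard*, the more widely expressed PPAR, had the lowest averaged change among the brightest probes of the PPAR genes. Its log2 signals were 9.02, 9.10 and 9.08 in C, 9.18, 9.28 and 9.36 in C + P, 8.80, 8.96 and 9.04 in D, and 9.05, 8.88 and 8.72 in D + P. Every D + P array lay under every C + P array, and D and C overlapped by a single array. The averaged change was -0.27 (SE 0.10, interval -0.49 to -0.04, adjusted p = 0.369 by limma), or 0.712 to 0.970 times the non-diabetic level. With normexp it was -0.057 (adjusted p = 0.874). An exact two-sided permutation test of this value over 400 arrangements within the pargyline strata gave p = 0.01, a value that 4.21% of all tested probes reached or passed. Its adjusted p over all probes was 0.237. All 7 macrophage markers were lower in the same contrast (median -0.45, 5 with an unadjusted p under 0.05 beside 5.46% of all probes, none past the adjusted threshold). Their summed level was 14.05 to 14.28 in C, 14.07 to 14.77 in C + P, 13.69 to 14.06 in D and 13.69 to 13.87 in D + P, and no defining marker was at 0. The part of these cells in the *Ppard* value was not tested.

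*Pparg* gave 9.58, 9.78 and 9.67 in C, 9.54, 9.95 and 9.99 in C + P, 10.73, 9.69 and 9.59 in D, and 9.62, 10.14 and 9.93 in D + P. Apart from D replicate 1 the D arrays lay within the range of the C arrays, and the groups overlapped throughout. Averaged over pargyline the change was 0.20 (SE 0.20, interval -0.24 to 0.64, adjusted p = 0.736), and it was 0.018 without D replicate 1, 0.30 without D replicate 3, 0.13 without C + P replicate 1, 0.12 with normexp, 0.057 with array weights and 0.044 without the 5 noisy arrays. The summed level of the 6 tested adipocyte markers was 13.43 on D replicate 1 and 12.80 and 12.69 on the other D arrays, against 12.61 to 12.77 in C, 12.42 to 12.83 in C + P and 12.92 to 13.36 in D + P. *Plin4*, a lipid droplet coat gene, made up nearly all of this sum (13.39 on D replicate 1, its highest value), whereas *Adig*, well above background on 12 of 12 arrays, had its lowest value there (6.50). None of the 6 passed the test, and *Adig* was lower in diabetes without overlap in either pair (-0.80, SE 0.16, adjusted p = 0.123 by limma). With arrays left out singly the adjusted p of *Adig* by limma ran from 0.0343 to 0.323. Of the 9 listed adipocyte markers, *Adipoq*, *Plin1*, *Cidec* and *Ucp1* were on 0 of 12 arrays well above background. The part of fat cells in the *Pparg* signal was not tested. The second *Pparg* probe, drawn against a database transcript outside RefSeq, exceeded background clearly on 0 of 12 arrays and did not enter the test.

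*Rxrg*, the RXR of striated muscle, measured 12.19, 12.22 and 12.34 in C, 12.34, 12.30 and 12.17 in C + P, 12.36, 12.27 and 12.25 in D, and 12.23, 12.24 and 12.06 in D + P. D overlapped C and D + P overlapped C + P. On average *Rxrg* differed by -0.03 (SE 0.09), and the interval of 0.852 to 1.13 times the non-diabetic level was among the narrowest measured.

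*Rxra*, the RXR that the developing heart requires, gave 12.86, 12.86 and 12.71 in C, 12.18, 12.79 and 12.75 in C + P, 12.93, 12.50 and 12.54 in D, and 12.94, 12.84 and 12.85 in D + P. The 3 D + P arrays were above the 3 C + P arrays, of which replicate 1 was far below the rest, and D and C overlapped. The averaged change was 0.08 (SE 0.14, adjusted p = 0.861), and it was -0.022 without C + P replicate 1. The other *Rxra* probe, on 0 of 12 arrays well above background, gave no usable level.

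*Rxrb*, the ubiquitous RXR, gave 11.37, 11.31 and 11.44 in C, 11.62, 11.48 and 11.57 in C + P, 11.36, 11.24 and 11.28 in D, and 11.44, 11.30 and 11.42 in D + P. The D + P arrays all lay under the C + P arrays, whereas D and C overlapped. Averaged over both pairs the change was -0.12 (SE 0.09, interval 0.799 to 1.05 times, adjusted p = 0.628 by limma), with an exact permutation p = 0.015 (adjusted 0.272). The 2 dimmer *Rxrb* probes, well above background on 10 and 9 arrays, gave -0.19 and 0.12 (-0.07 for the first without D replicate 1, and 0.016 for the second without C + P replicate 2).

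Among the coactivators, all 4 probes of *Ppargc1a* and *Ppargc1b* had higher averages in diabetes (48.5% of all tested probes did), none past the adjusted threshold. They stand for 2 genes whose brightest probes varied together over the 12 arrays (r = 0.78), so they are not 4 separate observations. The brightest *Ppargc1a* probe (chromosome 5, 51848928 to 51848987, mm9) gave 11.76, 11.92 and 11.92 in C, 11.68, 11.95 and 12.04 in C + P, 12.23, 12.21 and 11.87 in D, and 11.83, 12.30 and 12.20 in D + P. In each pair the diabetic arrays were higher except for a single array, and the averaged change was 0.23 (SE 0.13, interval -0.05 to 0.51, adjusted p = 0.525), or 0.44 with normexp (adjusted p = 0.371 by limma). The second probe lies 491 bases from the first on the same transcript and measured 10.07, 9.92 and 10.06 in C, 9.75, 10.05 and 10.13 in C + P, 10.14, 10.51 and 10.16 in D, and 10.20, 10.72 and 10.60 in D + P. Here no diabetic array overlapped its own controls in either pair, which was true of 1 of the 19 regulator probes and of 2.5% of all tested probes.

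The change at this second *Ppargc1a* probe was 0.39 (SE 0.13, interval 0.10 to 0.68, or 1.07 to 1.60 times), with an adjusted p = 0.318 by limma. The exact permutation p was 0.005, the smallest that the 400 arrangements can give, and its adjusted value over all probes was 0.200. Both *Ppargc1a* probes thus gave the same sign, and neither passed.

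*Ppargc1b*, the second coactivator, measured 10.80, 11.25 and 11.25 in C, 10.92, 11.54 and 11.31 in C + P, 11.67, 11.62 and 10.90 in D, and 11.63, 11.66 and 11.74 in D + P. All D + P arrays exceeded all C + P arrays, and D replicate 3 fell among the C arrays. Its averaged change was 0.36 (SE 0.17, interval -0.02 to 0.73, adjusted p = 0.464). It was 0.12 after removal of the 5 arrays with noisy repeat spots and 0.17 with normexp. The dimmer *Ppargc1b* probe gave 0.16 (SE 0.17), with a range of 0.053 to 0.25 when arrays were left out singly.

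*Esrra*, which encodes ERRα, had the lowest averaged change among the brightest probes of the 10 regulators. Its brightest probe on chromosome 19 (mm9, 6985503 to 6985562) gave 13.68, 13.75 and 13.66 in C, 13.91, 13.51 and 13.51 in C + P, 13.07, 13.48 and 13.29 in D, and 12.88, 13.38 and 13.69 in D + P. The 3 D arrays lay under the 3 C arrays, and D + P overlapped C + P through replicate 3. The averaged change was -0.37 (SE 0.15, interval -0.71 to -0.03, or 0.611 to 0.978 times, adjusted p = 0.404 by limma), and the exact permutation p was 0.03 (adjusted 0.338). It was -0.23 without the 5 noisy arrays, -0.24 with array weights and -0.20 for the mean of both *Esrra* probes. Over all 19 probes, 4 had an exact permutation p under 0.05, as had 11.8% of all tested probes.

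A second *Esrra* probe, designed on the cDNA AK046588 and placed 5667 bases away, ran differently. It measured 7.90, 8.23 and 8.04 in C, 7.34, 8.09 and 8.23 in C + P, 7.74, 7.67 and 6.69 in D, and 8.63, 8.59 and 8.35 in D + P. The D arrays were all under the C arrays, and the D + P arrays were all above the C + P and D arrays. The change was -0.70 (SE 0.30) in D against C and 0.64 (SE 0.30) in D + P against C + P. Each rested in part on 1 array, being -0.36 without D replicate 3 and 0.36 without C + P replicate 1. The interaction of 1.33 (SE 0.43) had an unadjusted p of 0.0104 and an adjusted p of 0.653 by limma. D + P exceeded D by 1.16 (SE 0.30, adjusted p = 0.192), the largest difference of any regulator probe in any of the pairwise contrasts, but these groups lay on different slides. Whether the cDNA probe lies in an exon, an intron or a UTR is not given in the sources used here.

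**Figure D2:**
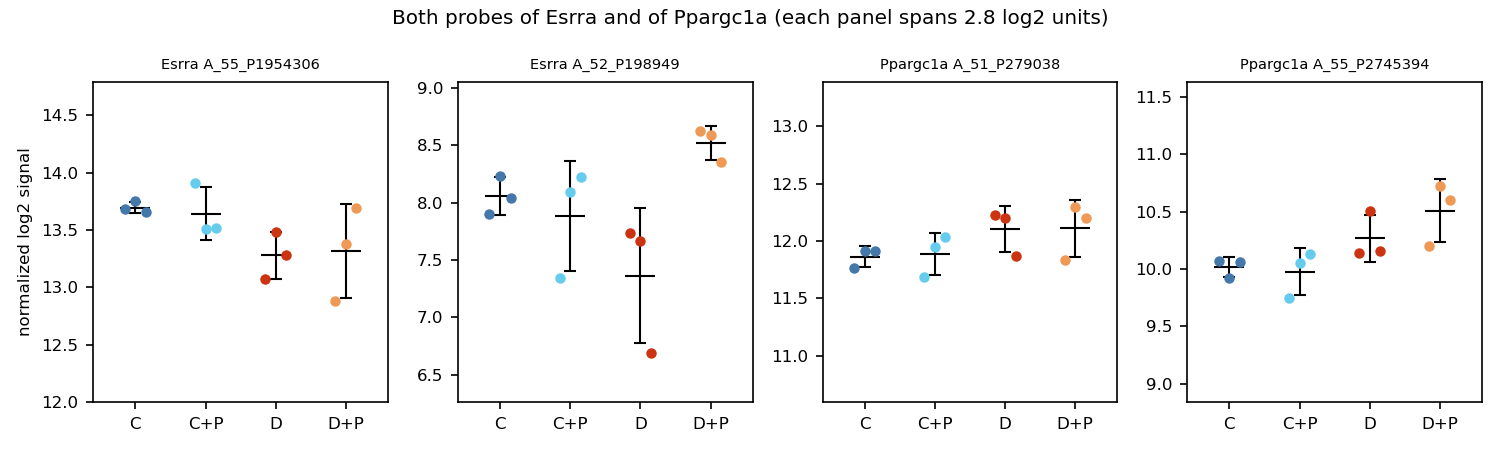
Normalized log2 signal (y axis) of both probes of *Esrra* and both of *Ppargc1a* in the 4 groups (x axis). Points are arrays, marks are group means and bars 1 SD (n = 3), and each panel spans 2.8 log2 units. The *Esrra* probes part in D + P, where the dimmer stands above all other groups, whereas the *Ppargc1a* probes keep the same order of D and D + P over C and C + P in their means.

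*Esrrg*, which encodes ERRγ, gave 8.95, 8.9998 and 9.07 in C, 8.74, 9.02 and 8.43 in C + P, 8.65, 9.47 and 9.36 in D, and 8.09, 9.05 and 9.14 in D + P. Both diabetic groups contained a low array (replicate 1) and overlapped their controls. Its averaged change was 0.09 (SE 0.21, interval 0.767 to 1.48 times), and a second probe gave 0.07 (SE 0.29). When arrays were left out singly the brightest probe ranged from -0.0035 to 0.26 and the second from -0.10 to 0.29. The third *Esrrg* probe, on another transcript, was on 0 of 12 arrays well above background. Its averaged change of -0.50 (SE 0.24), the lowest of the 19 tested regulator probes, was -0.27 without D replicate 3.

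Groups did not overlap at 3 of the 19 regulator probes in D against C (22.3% of all tested probes), at 7 in D + P against C + P (13.9%), at 2 in C + P against C (15.4%) and at 3 in D + P against D (17%). Of the 7 probes apart in D + P against C + P, 4 were higher in the diabetic hearts (brightest probes of *Rxra* and *Ppargc1b*, the second *Ppargc1a* probe and the cDNA probe of *Esrra*) and 3 lower (the second *Ppara* probe and the brightest of *Ppard* and *Rxrb*). In C + P against C the 2 probes were *Ppard*, higher by 0.21 (SE 0.14), and *Rxrb*, higher by 0.18 (SE 0.13), both at an adjusted p of 1.00. No exact permutation test of 3 arrays against 3 can give a two-sided p under 0.1.

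**Figure D3:**
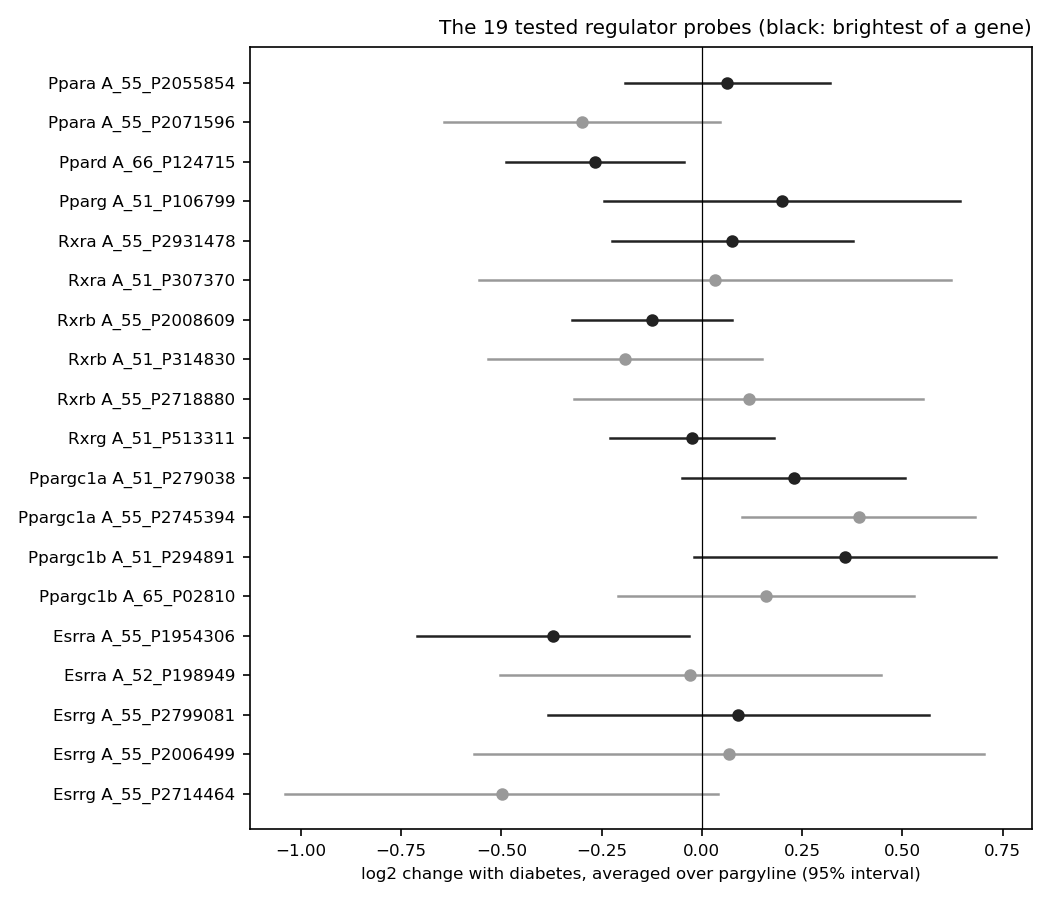
Log2 change with diabetes averaged over pargyline (x axis, with the 95% interval) for the 19 tested regulator probes (y axis). Black marks the brightest probe of a gene and grey the other probes. The intervals of *Ppard*, the bright *Esrra* probe and the second *Ppargc1a* probe do not reach 0, and none of these passed the adjusted threshold.

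The fatty acid targets of PPARs were taken from the same model, again at each gene's brightest probe. Of the 46 listed genes 43 were tested, and 3 rose in diabetes averaged over pargyline (0.0551% of all tested probes rose). *Angptl4*, a secreted inhibitor of lipoprotein lipase and a PPAR target, measured 9.04, 9.94 and 9.11 in C, 7.97, 9.63 and 8.03 in C + P, 11.51, 11.62 and 11.48 in D, and 11.48, 12.17 and 12.40 in D + P. Every diabetic array lay far above every non-diabetic array. The averaged change was 2.82 (SE 0.30, 7.08-fold, adjusted p = 0.0126 by limma). *Acot1*, a cytosolic acyl-CoA thioesterase, measured 9.91, 9.77 and 9.80 in C, 9.64, 9.38 and 9.11 in C + P, 11.52, 11.36 and 11.10 in D, and 10.35, 11.82 and 11.93 in D + P. Again no diabetic array reached down to the controls, and the averaged change was 1.75 (SE 0.25, adjusted p = 0.0423).

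These calls rested on few arrays. The number of targets past the threshold was 3 with all arrays, 0 when C replicate 1, C replicate 3, D + P replicate 2 or D + P replicate 3 was left out, 1 when C replicate 2, D replicate 1, D replicate 2 or any of the C + P arrays was, and 0 without the 5 noisy arrays. The averaged change of *Angptl4* stayed between 2.68 and 3.09 when arrays were left out singly, and that of *Acot1* between 1.60 and 2.00. Their adjusted p by limma then ran from 0.00243 to 0.0695 and from 0.00112 to 0.142. Of 24 alternatives in processing and arrays, *Acot1* lost the threshold in 15 and *Angptl4* in 5. In D + P against C + P, 1 target rose (*Angptl4*, adjusted p = 0.0254) beside 0.00324% of all probes, and in D against C 0 of 43 passed.

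As a list, 37 of the 43 fatty acid targets had a higher average in diabetes and 6 a lower, whereas 48.5% of all tested probes were higher. The median change was 0.22, against -0.01 for all tested probes. At an unadjusted p under 0.05 by limma 18 targets were higher and 0 lower, beside 5.93% and 5.46% of all probes. In 9 targets no diabetic array overlapped its own controls in either pair, which held for 1.21% of all probes in that direction. The list was chosen with earlier results of these data known, so these shares describe it and are no independent evidence of a rise. The median target level relative to the mean of C was -0.03 to 0.02 on the C arrays, -0.26 to 0.01 on the C + P arrays, 0.20 to 0.31 on the D arrays and 0.09 to 0.27 on the D + P arrays.

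Markers of cell types and cell states moved in the same contrast, and none passed the adjusted threshold by limma. The summed level of 3 tested genes listed as atrial was 11.56 to 11.99 in C, 11.40 to 11.71 in C + P, 12.14 to 13.86 in D and 12.50 to 14.37 in D + P, so the diabetic arrays stood clear of the others. *Myh7*, the slow myosin heavy chain gene, which is not confined to atria, was higher by 1.78 (SE 0.37, adjusted p = 0.134, or 0.0234 to 0.309 with arrays left out singly), whereas *Myl4* (-0.31) and *Myl7* (-0.05) were not higher and *Sln* was on 0 of 12 arrays well above background. Of 7 fibroblast markers 4 were higher and 3 lower, among them *Pdgfra* (0.45, SE 0.18), *Lum* (0.43, SE 0.12, without overlap in either pair) and *Col1a1* (-0.22, SE 0.15). Their summed level was 15.54 to 15.69 in C, 15.47 to 15.54 in C + P, 15.65 to 15.73 in D and 15.61 to 15.83 in D + P. The part of these cells or states in the shift of the fatty acid targets was not tested.

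The macrophage markers named by the size of their change were *Adgre1* (-0.59), *Cd68* (-0.49) and *C1qa* (-0.46), and the further endothelial ones *Emcn* (0.26) and *Tek* (0.22). Without C + P replicate 1 *C1qa* was at -0.30, *Emcn* at 0.14 and *Tek* at 0.14. Of the cardiomyocyte genes *Tnnt2* was at -0.31 (SE 0.22, or -0.14 without D replicate 1) and *Pln* at 0.23 (SE 0.21). *Pln* was at 0.11 without C + P replicate 3 and 0.41 without C + P replicate 1. Smooth muscle genes (4 tested) lay between -0.15 and 0.07, with *Tagln* at -0.08, and red cell genes (4 tested) between -0.23 for *Alas2* and 0.19 for *Hbb-b1*. With arrays left out singly *Tagln* ranged from -0.24 to 0.11, *Alas2* from -0.35 to -0.09 and *Hbb-b1* from 0.08 to 0.34. Of 6 genes listed as housekeeping, *Actb* was at -0.28 (SE 0.12) and *Rpl4* at 0.26 (SE 0.19, or 0.10 without C replicate 1).

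PPAR and RXR contact DNA through the core AGGTCA, and a PPAR-RXR site holds a pair of such cores with a single base between them, AGGTCANAGGTCA. The 300 bases around the transcript start (250 before and 50 after, RefSeq, GRCm38.p6) were searched on both strands for these exact letters. Promoters were at hand for 9 of the 10 regulators and 35 of the 46 targets. The exact paired form occurred in 13 of 32851 promoters (0.0396%), and 0 of those belonged to a regulator or a target. The ERR form TCAAGGTCA, which contains the core, occurred in 0.423% of promoters and also in 0 of either list. The single core occurred in 16.3% of all promoters and 18.1% of all genes with a promoter, in 3 of 9 regulators (*Pparg*, *Rxra* and *Rxrg*) and in 8 of 35 targets. The matches below, written 5′ to 3′ along the gene and with the core or its reverse complement in capitals, show the letters in those 3 regulators and in the 4 targets of the 8 with the highest averaged change, with 1 match per gene.
*Pparg* at chr6:115361099-115361138, plus strand: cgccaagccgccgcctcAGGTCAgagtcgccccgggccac
*Rxra* at chr2:27709227-27709266, plus strand: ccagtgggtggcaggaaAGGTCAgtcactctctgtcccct
*Rxrg* at chr1:167618160-167618199, plus strand: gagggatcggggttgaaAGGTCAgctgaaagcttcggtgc
*Ucp3* at chr7:100472825-100472864, plus strand: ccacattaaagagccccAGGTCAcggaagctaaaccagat
*Cpt1a* at chr19:3323190-3323229, plus strand: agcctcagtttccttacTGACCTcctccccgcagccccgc
*Plin2* at chr4:86670255-86670294, minus strand: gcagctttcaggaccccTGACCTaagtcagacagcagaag
*Aqp7* at chr4:41048163-41048202, minus strand: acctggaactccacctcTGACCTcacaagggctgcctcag

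The averaged changes of these 4 targets were 0.69 (SE 0.27) for the uncoupling protein gene *Ucp3*, 0.60 (SE 0.20) for *Cpt1a*, the carnitine palmitoyltransferase of mitochondrial fatty acid entry, 0.59 (SE 0.14) for the lipid droplet coat gene *Plin2* and 0.58 (SE 0.14) for the glycerol channel gene *Aqp7*. Their adjusted p values by limma were 0.388, 0.316, 0.187 and 0.179, so none passed. The 3 regulators with a core measured 0.20, 0.08 and -0.03. A letter match is a description of the sequence, and a window of this size leaves out enhancers and introns.

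The targets shared by PGC-1 and the ERRs, which are genes of the respiratory chain, the tricarboxylic acid cycle and mitochondrial transcription, showed no shift as a list. Of 39 listed genes 38 were tested, and 0 passed in any contrast, where 0% to 0.107% of all tested probes did. In the averaged contrast 16 were higher and 22 lower with a median of -0.02, and 48.5% of all tested probes were higher. At an unadjusted p under 0.05 by limma there were also 0 of 38 in that contrast, beside 11.4% of all tested probes. The largest averaged differences were -0.28 (SE 0.25, adjusted p = 0.701) for *Ogdh*, a subunit of the 2-oxoglutarate dehydrogenase complex, -0.27 (SE 0.23) for cytochrome c (*Cycs*) and 0.25 (SE 0.16) for the mitochondrial transcription factor *Tfam*. The signal of *Ogdh* was missing on D replicate 1, so that its fit lacked that array. Its value rested on D + P replicate 3, at 14.43 beside 15.69 to 16.21 on the other arrays, and was -0.059 without it. With arrays left out singly *Cycs* ranged from -0.10 (without D + P replicate 2) to -0.45 (without D + P replicate 3) and *Tfam* from 0.14 (without C + P replicate 3) to 0.36.

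Other proteins that dock on the receptors were listed as coactivators and corepressors. In the averaged contrast 0 of 24 tested passed, beside 0.107% of all tested probes. Of the 24, 17 were lower and 7 higher in that contrast, with a median of -0.13, and 48.5% of all tested probes were higher. The corepressor-like orphan receptor gene *Nr0b2* was higher by 0.53 (SE 0.14, adjusted p = 0.208), with signal well above background on 3 arrays of D + P and 2 of each other group, the coregulator *Cited2* higher by 0.48 (SE 0.19) and the acetyltransferase *Kat2a* lower, at -0.45 (SE 0.18). *Kat2a* measured 8.58 to 8.82 in C, 8.85 to 8.90 in C + P, 8.23 to 8.48 in D and 7.83 to 9.03 in D + P, so that D lay apart from C and a single D + P array lay above all C + P arrays. *Nrip1*, a ligand-dependent corepressor singled out after its values were seen, had opposite signs in the pairs, at -0.79 (SE 0.22, adjusted p = 0.315 by limma) in D against C without overlap and 0.22 (SE 0.22) in D + P against C + P, and its averaged change was -0.29 (SE 0.15). Its interaction was 1.01 (SE 0.31, adjusted p = 0.640 by limma), and D + P exceeded D, on the other slide, by 1.10 (SE 0.22, adjusted p = 0.149 by limma).

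Among 18 tested genes for other RXR partners and related receptors 0 passed in the averaged contrast (0.107% of all tested probes did), with a median of 0.05. The largest averaged differences were 0.56 (SE 0.17, adjusted p = 0.256) for *Nr2f2*, the orphan receptor COUP-TFII, 0.40 (SE 0.15) for *Esrrb*, the remaining ERR gene, and 0.37 (SE 0.11) for the orphan receptor gene *Nr2c1*. *Esrrb* measured 9.82, 10.27 and 10.37 in C, 10.43, 10.55 and 10.27 in C + P, 11.002, 10.71 and 10.37 in D, and 10.57, 10.50 and 10.95 in D + P. Its change thus had the sign opposite to that of the bright *Esrra* probe, at an adjusted p of 0.379.

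Genes of ligand supply, which act in the release, binding or synthesis of fatty acid and retinoid ligands, had a higher average in 11 of 12 tested. Of all tested probes 48.5% were higher. In the averaged contrast 0 of the 12 passed, beside 0.107% of all tested probes. The median was 0.19. Among the 11 was *G0s2* (0.012, SE 0.24), whose product inhibits the lipase Pnpla2 and so opposes release. *Fabp4*, a fatty acid-binding protein of fat and endothelium, was higher by 0.55 (SE 0.16, adjusted p = 0.244), *Fabp5* by 0.34 (SE 0.16), and the phospholipase gene *Pla2g6* was lower, at -0.31 (SE 0.15). Of the 7 endothelial markers 5 were higher and 2 lower in the averaged contrast, none past the threshold, and *Vwf* differed most (0.53, SE 0.14, adjusted p = 0.234 by limma). They summed to 13.68 to 13.996 in C, 13.67 to 14.07 in C + P, 13.70 to 13.87 in D and 13.96 to 14.31 in D + P. The part of endothelial or fat cells in the *Fabp4* value was not tested.

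**Figure D4:**
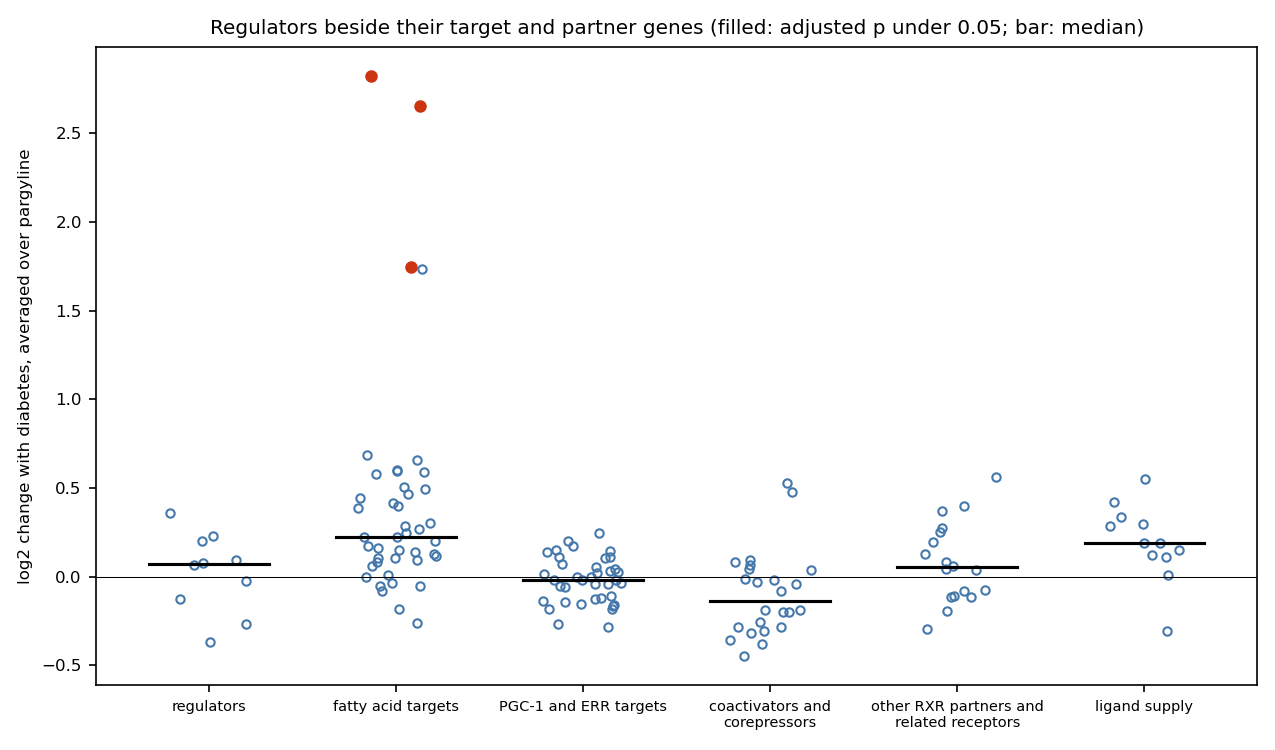
Log2 change with diabetes averaged over pargyline (y axis) for the brightest tested probe of each gene in 6 lists (x axis). Each point is a gene, filled where the adjusted p was under 0.05, and the bar is the list's median. The 3 filled points are fatty acid targets, and the 10 regulators lie between -0.37 and 0.36 with the main scaling.

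How the members varied together was described over the 12 arrays by Pearson's r, with no test, since the arrays share groups and scaling. The highest r of any pair of regulators was 0.78 between *Ppargc1a* and *Ppargc1b*, and the lowest was -0.60 between *Rxrb* and *Esrrg*. After the group means were removed the order differed. *Ppara* and *Ppargc1b* then had the highest r (0.85), followed by *Esrra* with *Esrrg* (0.76) and *Ppargc1a* with *Ppargc1b* (0.73), and *Rxra* with *Esrra* the lowest (-0.64). Across all genes with a RefSeq symbol, *Esrra* was most like *Klc2*, a kinesin light chain (r = 0.99), and *Kpnb1*, an importin (r = 0.95). *Esrrg* was most like *Zeb2*, a zinc finger repressor (r = 0.96), and *Fabp3*, the heart fatty acid-binding protein (r = 0.95). The genes named here and below were picked as the highest r of a very large number over 12 arrays. Such a choice yields high values by itself, and no comparison value was computed.

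The PPAR genes were most like *Dusp3* for *Ppara* (r = 0.94), *Flad1* for *Ppard* (r = 0.97) and *Rnf169* for *Pparg* (r = 0.90). The next were *Kbtbd2* (r = 0.86), *Plekha8* (r = 0.92) and *Spred2* (r = 0.89). The RXR genes were most like *Nrg3os* and *Hook3* for *Rxra* (r = 0.96 and 0.95), *Ivns1abp* and *Btg2* for *Rxrb* (both r = 0.91), and *Micos10* and *Lancl2* for *Rxrg* (r = 0.89 and 0.88). *Ppargc1a* was most like *Ahr*, the aryl hydrocarbon receptor (r = 0.89), and *Dlc1* (r = 0.87), and *Ppargc1b* was most like *Mllt3* and *Bptf* (r = 0.91 and 0.89).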

How the data were processed

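Per the file headers, each of the 12 Agilent one-colour scanner files gives spot intensity on a linear scale, background-subtracted and detrended within the array by the authors' Feature Extraction software, after Cy3 labelling of 200 ng of RNA. The deposited flags of 0 or 1 (other values) mark positive, well-above-background, outlier and saturated spots. The deposited series table, used as an alternative, holds intensity that the authors had quantile normalized; each of its columns had the rank order of its own scanner file (Spearman rho of at least 0.99997, against at most 0.964 with another array). Here intensity was log2 transformed and quantile normalized over 59305 non-control spots, with outlier spots missing and repeat spots averaged. A probe was tested where no group had fewer than 50% of its arrays with a positive and significant spot (30857 of 56605); 2.04% of their values were not positive and significant and were kept. Coordinates of probes are mm9.

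Models were fitted in limma 3.58.1 (R 4.3.3, with lmFit and eBayes on the 4 group means, 8 residual and 2.62 prior degrees of freedom, two-sided). Exact permutation tests used 400 arrangements. The code was tested on simulated data. Figures and the promoter search used Python 3.11.15 with matplotlib 3.10.9, numpy 2.4.6 and pandas 2.3.3. The number of arrays limits the precision. Groups came from sample titles. The members and gene lists were chosen with earlier results of these data known. Named were all regulator probes and, from each list (markers included), every gene past the threshold in the averaged contrast plus the 3 largest averaged changes of equal sign in both pairs (*Retn*, well above background on at most 1 array, is not described); *Ucp3*, *Cpt1a*, *Plin2*, *Aqp7*, *Nrip1* and *G0s2* were chosen after their values were seen, and 1 fatty acid target past the threshold is not reported here. Alternatives covered scaling, background correction, filters, array weights, blocks, the methods' t-test, the series table, averaging of probes and leaving out arrays (for the named genes of the lists and for the further regulator probes and contrasts, this was chosen after seeing the data).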

Additional observations from a re-analysis of the deposited data

Results flagged for a closer look

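The cDNA probe of *Esrra* (AK046588) was singled out because the effect of diabetes had opposite directions without and with pargyline. All 3 D arrays lay under all 3 C arrays and all 3 D + P arrays above all 3 C + P arrays. The difference between both effects was 1.33 on the log2 scale (SE 0.43, 95% interval 0.38 to 2.28), with an unadjusted p of 0.0104 and an adjusted p of 0.653 by limma, so it did not pass the threshold. With arrays left out singly it ranged from 0.99 (D replicate 3) to 1.52 (D replicate 1), and the 2 effects were -0.36 (D against C without D replicate 3) and 0.36 (D + P against C + P without C + P replicate 1) instead of -0.70 and 0.64. The brighter *Esrra* probe gave an interaction of 0.09 (SE 0.31). The signal of the cDNA probe cleared the background on 12 of 12 arrays.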

How the results depend on the processing

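The count of regulator probes past the threshold was 0 in each of the 6 contrasts under every alternative run (22 to 25 per contrast). The median change of the fatty acid targets ranged from 0.17 to 0.30 over its 24 alternatives, and *Ppard*, *Pparg*, *Ppargc1a*, *Ppargc1b* and *Esrra* kept their sign in all 24, with *Ppard* at -0.06 with normexp (offset 50) and *Pparg* at 0.02 without D replicate 1. Signs turned for the brightest probe of 5 regulators. With array weights *Ppara* was -0.015 and *Rxra* -0.0655, with all probes of a gene averaged *Ppara* was -0.12 and *Esrrg* -0.11, with normexp *Rxrb* was 0.030, *Rxrg* 0.13 and *Esrrg* -0.032, and with 75th percentile scaling *Rxrg* was 0.0016. With arrays left out singly, *Rxra* ranged from -0.022 (without C + P replicate 1) to 0.13, *Rxrg* from -0.051 to 0.0027 and *Esrrg* from -0.0035 to 0.26, the turned values of both being those without D + P replicate 3. Without the 5 noisy arrays, an alternative chosen after seeing the data, *Ppara* was -0.087 and *Rxra* -0.098.

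The count of fatty acid targets past the threshold in diabetes averaged over pargyline, 3, was 1 without a filter on dim probes, 8 with array weights and 1 when the slide column was blocked, 0 to 4 with arrays left out singly, and 0 without the noisy arrays. In D against C it was 2 with array weights instead of 0. In D + P against C + P, 1 became 2 with normexp or array weights, 0 in a fit of only the 2 groups, 0 by the methods' t-test after Benjamini-Hochberg or Bonferroni adjustment, 0 to 3 with arrays left out singly and 0 without the noisy arrays. The causes were not tested. With the replicate number as a block, 1 target passed in the averaged contrast, and no regulator call changed. Deviations of same-numbered arrays from their group means correlated at -0.20 to 0.20, so the numbers were not taken to pair the arrays. No regulator probe was saturated on any array. Estimated array weights ran from 0.25 (D replicate 1) to 3.32 (C + P replicate 2).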
